A study of Mus musculus with 71 samples.

Results

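The comparison set the heart against the tail bud of wild-type mouse embryos at embryonic day 9.5. It used 6 of the 71 RNA-seq libraries of a series on the miR-17-92 microRNA cluster: 3 libraries of microdissected heart and 3 of microdissected tail bud, chosen by their tissue and genotype labels. The embryos were C57BL/6 with a wild-type miR-17-92 locus and had 20 to 22 somites. Hearts, tail buds and what was left of each embryo were collected into TRIZOL, and the RNA was sequenced as single reads of 50 bases. The series text calls the 3 libraries of a group biological triplicates, and whether a library came from 1 embryo or a pool is not given in the sources used here. The 3 wild-type libraries of the remaining embryo gave side values. A further 42 heart and tail bud libraries, from embryos with 7 mutant genotypes at the locus (labelled Full-KO, Delta_17, Delta_18, Delta_19, Delta_92, Delta_17_18 and Delta_17_18_92), gave the same contrast in other embryos.

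At this stage the mouse heart has looped and beats. Its wall holds working heart muscle, an endocardial lining set apart from the muscle by cardiac jelly, and an outer surface that the epicardium begins to cover. The tail bud is the growth zone at the posterior end of the embryo, where progenitors kept by WNT and FGF signals give rise to spinal cord and presomitic mesoderm and where posterior Hox genes come on one after another. Retinoic acid, made by the somites in front of it, opposes the FGF signal and is broken down in the tail bud.

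MicroRNAs enter this comparison through the genes that carry them, and their sequences are shown for the seeds (bases 2 to 8, in capitals) that define their families. The cluster that the series is about yields 6 mature miRNAs from the transcript Mir17hg on the plus strand of mouse chromosome 14. In RefSeq they lie between 115043684 and 115044496 (GRCm38.p6), and they fall into 4 seed families.
miR-17-5p: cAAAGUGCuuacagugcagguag
miR-20a-5p: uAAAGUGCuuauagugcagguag
miR-18a-5p: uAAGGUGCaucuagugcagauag
miR-19a-3p: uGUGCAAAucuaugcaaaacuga
miR-19b-3p: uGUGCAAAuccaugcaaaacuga
miR-92a-3p: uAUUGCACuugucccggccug
Another group of miRNAs sits inside introns of myosin heavy chain genes. The gene of miR-208a lies in Myh6 and that of miR-208b in Myh7, both on the minus strand of chromosome 14 (from 54949072 and from 54975710), and that of miR-499 lies in Myh7b on the plus strand of chromosome 2 (from 155622893). The first 6 bases of their seeds are the same, and the last base sets miR-499 apart from miR-208a and miR-208b.
miR-208a-3p: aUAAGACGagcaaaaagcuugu
miR-208b-3p: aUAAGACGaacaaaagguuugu
miR-499-5p: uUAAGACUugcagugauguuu

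The deposited counts are of longer RNA per gene, so they measured the transcripts that carry these miRNAs and not the mature molecules. Mir17hg (ENSMUSG00000089726) had 43.1, 47.2 and 43.4 CPM in the 3 hearts, against 127, 137 and 105 CPM in the 3 tail buds. CPM are counts relative to the TMM-scaled library total. All 3 hearts were below all 3 tail buds, with a log2 fold change of −1.47 ± 0.08 (adjusted p = 6.87e-09). A log2 fold change is heart minus tail bud, and adjusted p values are from edgeR's quasi-likelihood test. The value after ± is an approximate standard error (SE). It is the size of the log2 fold change divided by the square root of that test's F value. Each library is a bulk sample, in which fewer cells of a type and less RNA per cell cannot be told apart. The separate rows of the 6 hairpins of the cluster were listed at 0 in all 6 libraries.

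The myosin genes that carry the other group of miRNAs were on the heart side. Myh6, the alpha heavy chain, had 8614, 8174 and 8681 CPM in the 3 hearts, against 0.495, 1.13 and 5.11 CPM in the 3 tail buds. Its log2 fold change was 12.06 ± 0.77 (adjusted p = 7.88e-06), and the third tail bud held the most of its group. Myh7, the beta heavy chain of the embryonic ventricle, had 7856, 8074 and 5869.8 CPM in the 3 hearts, against 0.866, 1.17 and 1.70 CPM in the 3 tail buds. Its difference was 12.56 ± 0.29. Myh7b had 148, 166 and 144 CPM in the 3 hearts, against 1.20, 2.06 and 1.45 CPM in the 3 tail buds. Every heart was thus far above every tail bud in all 3 hosts. The small row of Mir208b had 2.49, 2.33 and 2.35 CPM in the 3 hearts and 0 in the 3 tail buds, at least 16.7-fold higher at a floor of 3 counts per library. That of Mir208a had 1.46, 1.22 and 2.24 CPM in heart and 0 in tail bud, at least 11.4-fold higher. Reads of an unspliced myosin transcript and of the hairpin cannot be told apart in these rows, and the row of Mir499 was listed at 0 in all 6 libraries.

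Totals ran from 18762853 to 20676010 counts in the hearts and from 15134178 to 24653471 in the tail buds. The third tail bud stood apart from its group: its median absolute log2 difference from the other tail buds was 0.168 and 0.175, against 0.0679 between those 2 and 0.0725 to 0.0829 among hearts. Ribosomal protein genes held 1.51% of its counts, against 1.04% and 0.976% in the others, and genes over 6000 bases 42.0%, against 45.9% and 46.6%. Among hearts the first had the highest levels of the tail bud genes T, Cdx2 and Hox, given below. The Y-linked genes Eif2s3y, Ddx3y, Kdm5d and Uty were at most 0.234 CPM in the second heart and the second tail bud, whereas Xist was at 1469.5 CPM in that heart and 2036 CPM in that tail bud. In the other 4 libraries each of these Y-linked genes was at 42.9 CPM or more and Xist at 49.5 CPM or less. The defining genes of each tissue were present in its libraries, except that the troponin C gene Tnnc1 and the sinus node factor gene Shox2 were listed at 0 in all 6. Absent transcripts and reads lost in counting cannot be told apart in these 0 rows, so they are uncertain.

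Of 16922 genes tested, 11611 (68.6%) passed an adjusted p of 0.05, 5725 higher in heart (33.8%) and 5886 lower (34.8%). A second test asked for a difference beyond 2-fold, and 3640 genes (21.5%) passed it, 2119 higher in heart (12.5%) and 1521 lower (8.99%). The libraries of the 2 tissues did not overlap in 70.5% of genes. The median log2 fold change over all genes tested was −0.03, the 5th percentile −2.41 and the 95th percentile 2.91. These shares and this median are the background for the gene lists below, in which "higher" and "lower" mean past the adjusted p of 0.05. The lists were chosen with earlier results of these data known, so their counts are descriptions and not independent tests.

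**Figure D1:**
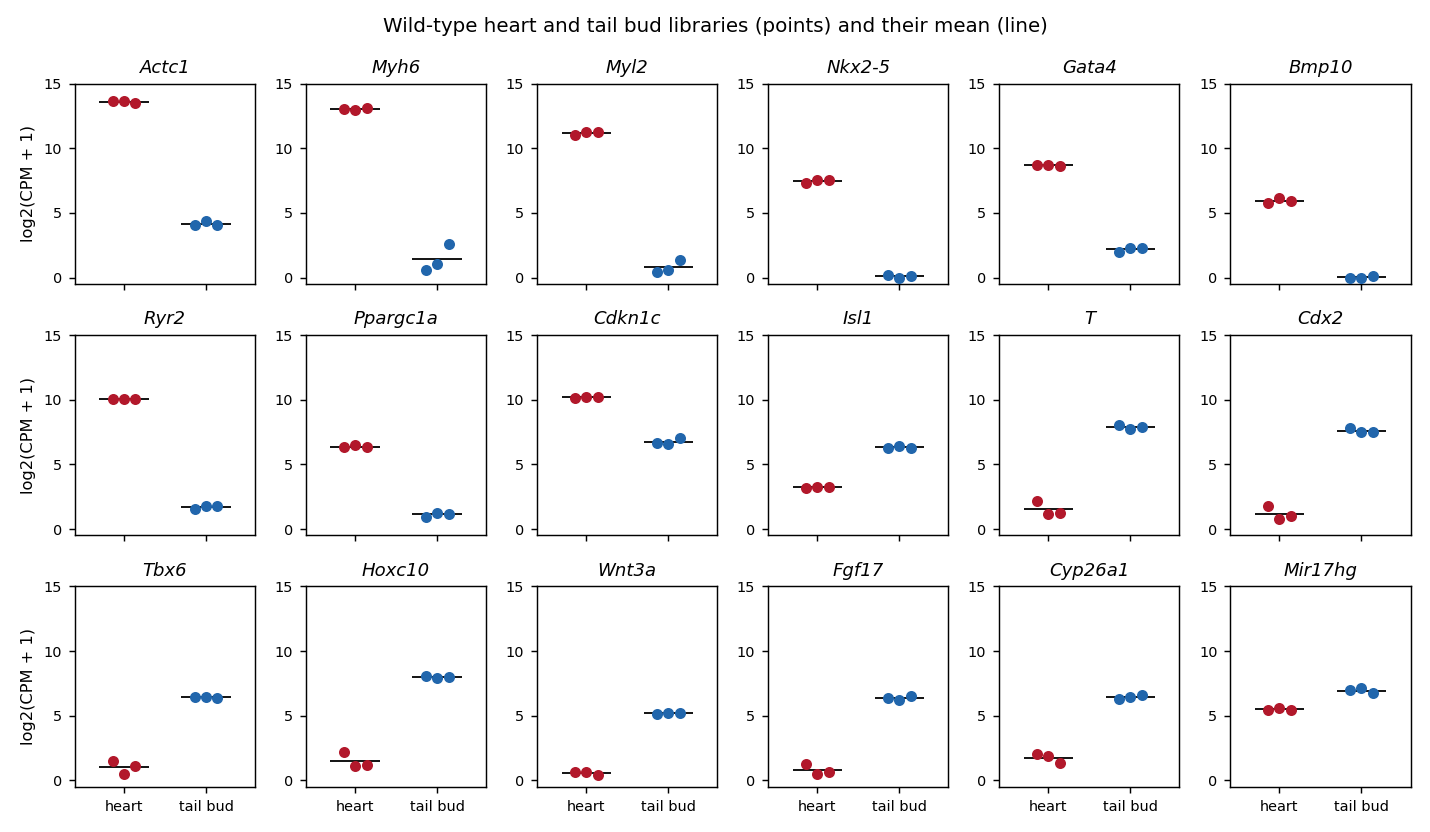
Levels of 18 genes as log2(CPM + 1) in each library (points) with the mean of 3 (line), the hearts on the left of each panel and the tail buds on the right. In 9 genes, from Actc1 to Cdkn1c, every heart was above every tail bud, and in the other 9, among them Isl1, T and Mir17hg, every heart was below every tail bud.

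Genes of the contractile machinery of heart muscle had the highest median of the 35 gene lists. Of the 36 listed, 35 were tested. In heart 34 were higher, each beyond 2-fold, and 1 was lower, with a median log2 fold change of 9.49 against −0.03 over all genes tested (9.43 with genes at 0 in tail bud set to their bound). Together they held 74363, 77083 and 67668 CPM in the 3 hearts, against 906, 902 and 908 CPM in the 3 tail buds.

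Cardiac actin, Actc1 (ENSMUSG00000068614), had 12747, 13117 and 11420.2 CPM in the 3 hearts, against 15.8, 19.8 and 16.0 CPM in the 3 tail buds. No library of either tissue came near those of the other, and the difference was 9.49 ± 0.18 (adjusted p = 6.22e-13). Per exon length it was the most abundant gene of the heart, at 7681 RPKM in heart and 10.6 RPKM in tail bud. The atrial light chain Myl7 came next, at 6766 RPKM in heart and 3.08 RPKM in tail bud. Acta2, smooth muscle actin, was at 2122 RPKM in heart and 26.6 RPKM in tail bud, and the ventricular light chain Myl2 at 1201 RPKM in heart and 0.430 RPKM in tail bud. H19, an imprinted RNA, was as high in rank but present in both tissues, at 2423 RPKM in heart and 2134 RPKM in tail bud.

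The thick filament and titin were nearly absent from tail bud. The myosin-binding protein gene Mybpc3 had 3159, 3061 and 2766 CPM in the 3 hearts, against 0.124, 0.662 and 1.83 CPM in the 3 tail buds. Titin, Ttn, the giant protein that spans the sarcomere, had 7439, 9138 and 6965 CPM in the 3 hearts, against 1.73, 1.56 and 5.92 CPM in the 3 tail buds. In both the third tail bud was the highest of its group, and the log2 fold changes were 11.93 ± 0.45 and 11.43 ± 0.54. Among thin filament genes Tnnt2, which ties the troponin complex to tropomyosin, had 2951, 3016 and 2778 CPM in the 3 hearts, against 1.44, 1.71 and 2.08 CPM in the 3 tail buds, with a log2 fold change of 10.73 ± 0.16 (adjusted p = 3.15e-14). The troponin I isoforms differed in level: Tnni1, the slow skeletal isoform used by the embryonic heart, was at 539.7 RPKM in heart and 1.26 RPKM in tail bud. Tnni3, the adult cardiac isoform, was at 181 RPKM in heart and 0.750 RPKM in tail bud.

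At the Z-disc, where thin filaments are anchored, the alpha-actinin gene Actn2 differed by 9.41 ± 0.20, Ldb3 by 10.17 ± 0.19, Csrp3 by 11.27 ± 0.23, Tcap by 8.77 ± 0.23 and Synpo2l by 9.45 ± 0.12, all higher in heart. Lmod2, a leiomodin that lengthens thin filaments, had 62.5, 86.5 and 78.3 CPM in the 3 hearts and 0 in the 3 tail buds, at least 529-fold higher. Myoz2, which binds calcineurin at the Z-disc, had 9.18, 11.8 and 7.89 CPM in heart and 0 in tail bud, at least 67.2-fold higher. These genes left no count at all in tail bud. Genes of myosin folding and sarcomere assembly were higher too, the chaperone Unc45b by 10.73 ± 0.12 and the methyltransferase Smyd1 by 7.66 ± 0.10.

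Some members had a sizeable level in tail bud. Tpm1, a tropomyosin that other cells also make, had 3876, 3975 and 3455 CPM in the 3 hearts, against 796, 781 and 785 CPM in the 3 tail buds, with a log2 fold change of 2.26 ± 0.07 (adjusted p = 1.00e-11). Desmin, Des, an intermediate filament of muscle, had 927, 993 and 859 CPM in the 3 hearts, against 41.0, 41.6 and 40.0 CPM in the 3 tail buds. Its difference was 4.50 ± 0.08, and the remaining embryo had 20.6 ± 1.94 CPM (SD, n = 3). The member on the other side was the M-band gene Myom2, at very low levels: it had 0.486, 0.388 and 0.353 CPM in heart and 0.743, 1.21 and 1.01 CPM in tail bud (log2 fold change −1.25 ± 0.36, adjusted p = 0.00799). Its relative Myom1 was higher in heart, with a log2 fold change of 7.75 ± 0.17.

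The 250 bases upstream of each start in the RefSeq promoters of GRCm38.p6 were searched for letters that known cardiac and posterior factors bind. Of the 36 contractile genes 30 matched, with 41 promoters. A CArG box, bound by serum response factor, lay in 19.5% of them, against 1.47% of all 32851 promoters and 0% of the 22 promoters of 18 axial progenitor genes described further on. A MEF2 site lay in 14.6% of contractile promoters, 0% of axial ones and 2.92% of all. The GATA letters AGATAA lay in 19.5%, 9.09% and 9.99% in the same order. The NKX2 letters TNAAGTG were in 7.32% of contractile, 18.2% of axial and 10.1% of all promoters, the T-box letters AGGTGT in 14.6%, 27.3% and 11.8%, the TCF/LEF letters CTTTGAT in 2.44%, 13.6% and 3.21%, and TATAAA in 7.32%, 13.6% and 12.4%. Both strands were searched, motifs may overlap, and a match is a run of letters and not a bound site. Shown are 3 contractile promoters and 1 axial promoter with the matched letters in capitals, 5′ to 3′ on the strand of the gene and ending at the base before its start. Actc1 (chr2:114052876-114053125, minus strand) and Myl7 (chr11:5898783-5899032, minus strand) have a CArG box that begins 47 and 61 bases before the start. Mybpc3 (chr2:91117894-91118143, plus strand) has a MEF2 site 90 bases before it, and Msgn1 (chr12:11208949-11209198, minus strand) has the TCF/LEF letters of the other strand 203 bases before it.
Actc1: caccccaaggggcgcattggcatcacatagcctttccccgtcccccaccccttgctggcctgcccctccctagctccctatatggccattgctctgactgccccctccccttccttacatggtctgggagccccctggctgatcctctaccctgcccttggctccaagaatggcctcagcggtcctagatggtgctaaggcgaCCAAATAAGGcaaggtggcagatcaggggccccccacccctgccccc
Myl7: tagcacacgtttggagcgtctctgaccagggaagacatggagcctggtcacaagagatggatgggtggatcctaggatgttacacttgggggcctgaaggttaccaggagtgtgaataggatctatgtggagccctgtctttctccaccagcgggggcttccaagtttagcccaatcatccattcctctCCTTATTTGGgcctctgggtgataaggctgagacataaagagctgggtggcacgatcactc
Mybpc3: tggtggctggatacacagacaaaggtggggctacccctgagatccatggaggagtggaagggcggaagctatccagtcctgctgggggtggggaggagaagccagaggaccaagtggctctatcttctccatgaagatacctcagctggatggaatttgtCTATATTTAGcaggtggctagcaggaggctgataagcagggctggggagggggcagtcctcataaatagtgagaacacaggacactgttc
Msgn1: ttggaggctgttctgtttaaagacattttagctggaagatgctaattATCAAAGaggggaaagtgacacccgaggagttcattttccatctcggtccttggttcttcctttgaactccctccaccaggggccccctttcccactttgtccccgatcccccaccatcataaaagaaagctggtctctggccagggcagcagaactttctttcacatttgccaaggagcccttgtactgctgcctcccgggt

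Transcription factors of the heart were higher in heart in 23 of 27 tested (20 beyond 2-fold) and lower in 4 (0 beyond 2-fold, and 1 without the first heart), with a median of 2.41. Nkx2-5 (ENSMUSG00000015579), the homeobox factor required for chamber formation, had 159.5, 182 and 183 CPM in the 3 hearts, against 0.165, 0 and 0.0630 CPM in the 3 tail buds. Its log2 fold change was 11.06 ± 0.23 (adjusted p = 4.20e-13). Gata4, a zinc finger factor of heart muscle and endocardium, had 428, 427 and 405 CPM in the 3 hearts, against 3.01, 4.01 and 3.91 CPM in the 3 tail buds, with a log2 fold change of 6.85 ± 0.09 (adjusted p = 1.63e-14). The 3 hearts lay close together in both genes, as did the 3 tail buds in Gata4. The tail bud values of Nkx2-5 were near or below the floor of 3 counts per library (0.143 CPM on average). They rest on a few counts or none, and the size of its log2 fold change depends on them. The related Gata5 and Gata6 differed by 4.42 ± 0.09 and 2.41 ± 0.11, and Myocd, the coactivator of serum response factor, by 7.46 ± 0.14.

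T-box and MEF2 factors were graded in size. Tbx5, a factor of the posterior heart and forelimb, had 164, 155 and 154 CPM in the 3 hearts, against 0.578, 0.935 and 1.51 CPM in the 3 tail buds. Tbx20, which keeps Tbx2 out of the chambers, had 789, 813 and 813 CPM in the 3 hearts, against 16.4, 17.4 and 11.0 CPM in the 3 tail buds. The differences were 7.36 ± 0.16 and 5.73 ± 0.13, while Mef2c, Mef2d and Mef2a differed by 4.55 ± 0.08, 2.27 ± 0.06 and 1.96 ± 0.06. The partners Hand1 and Hand2 differed by less, 1.69 ± 0.08 and 1.03 ± 0.09, and Hand2 was present in tail bud, with 109, 109.9 and 109 CPM in heart and 54.4, 55.5 and 50.4 CPM in tail bud. The 4 lower factors were Nr2f2, an orphan receptor of atrial muscle (log2 fold change −1.19 ± 0.16, adjusted p = 6.61e-05), the Iroquois factor Irx3 (log2 fold change −0.83 ± 0.10, adjusted p = 6.20e-06), the Notch target Hey1 (log2 fold change −0.54 ± 0.18, adjusted p = 0.0179) and Tbx3 (log2 fold change −0.30 ± 0.10, adjusted p = 0.0191), all present in both tissues. Without the second heart the calls of Hey1 and Tbx3 were lost (adjusted p = 0.0680 and 0.0874), leaving 2 lower. Hey1 was also lost without the third heart, without the third tail bud and with no filter on low counts (0.0691, 0.131 and 0.0846), and Tbx3 without the first or the second tail bud (0.0630 and 0.0764).

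Calcium handling and electrical genes were higher in 24 of 27 tested (24 beyond 2-fold) and lower in 3 (2 beyond 2-fold), with a median of 4.60. Ryr2, the calcium release channel of the sarcoplasmic reticulum, had 1048, 1081 and 1039 CPM in the 3 hearts, against 1.98, 2.45 and 2.40 CPM in the 3 tail buds, with a log2 fold change of 8.86 ± 0.11 (adjusted p = 7.36e-15). Slc8a1, the sodium-calcium exchanger, had 1264, 1299 and 1279 CPM in the 3 hearts, against 1.94, 3.62 and 4.35 CPM in the 3 tail buds, with a log2 fold change of 8.63 ± 0.20 (adjusted p = 5.49e-12). Phospholamban, Pln, which restrains the calcium pump, had 112, 149 and 145 CPM in heart and 0.0825, 0.0390 and 0 CPM in tail bud, the tail bud values being 3 counts in all. The tail buds held at most a few CPM of these 3 genes. The pump itself, Atp2a2, which other cell types use as well, had 3173, 2929 and 2638 CPM in the 3 hearts, against 543, 547 and 443 CPM in the 3 tail buds, a difference of 2.51 ± 0.09.

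Channels of pacing and conduction were present. Hcn4, the main channel of the pacemaker current, had 101, 97.0 and 93.7 CPM in the 3 hearts, against 3.01, 2.80 and 2.40 CPM in the 3 tail buds. The calcium channels Cacna1h, Cacna1d and Cacna1c were higher (6.08 ± 0.07, 4.56 ± 0.14 and 3.81 ± 0.13), as was the potassium channel Kcnj5 (7.70 ± 0.12), while the calcium channel Cacna1g was lower (log2 fold change −1.83 ± 0.14, adjusted p = 8.38e-08). The connexins split. Connexin 40, Gja5, was higher, with 59.6, 62.1 and 77.3 CPM in the 3 hearts, against 19.6, 20.9 and 19.4 CPM in the 3 tail buds. Connexin 43, Gja1, the main connexin of the adult ventricle, was lower, with 134, 152 and 153 CPM in the 3 hearts, against 572, 531 and 565 CPM in the 3 tail buds. No library overlapped in either, and the log2 fold changes were 1.73 ± 0.11 and −1.93 ± 0.07. Connexin 45, Gjc1, was lower by a small margin (log2 fold change −0.22 ± 0.07, adjusted p = 0.0102, and 0.0513 without the third heart).

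Of 12 hormones and secreted factors of the heart, 9 were higher (7 beyond 2-fold) and 3 lower (3 beyond 2-fold), with a median of 2.19. The natriuretic peptide gene Nppa, a marker of working chamber muscle, had 228, 255 and 166 CPM in the 3 hearts, against 0, 0.0390 and 0 CPM in the 3 tail buds, a single count in all tail buds. Nppb, its relative, had 111, 228 and 89.6 CPM in the 3 hearts, against 0.0413, 0.0390 and 0 CPM in the 3 tail buds. The second heart held the most Nppb of the 3 hearts, and it also stood out in Ankrd1, a gene that responds to stretch (794, 1410.04 and 709 CPM in the 3 hearts), and in Ccn2, a matricellular gene (27.8, 69.1 and 26.5 CPM). Bmp10, a growth factor of the trabeculae, had 53.9, 72.0 and 58.9 CPM in heart and a single count in the 3 tail buds together. The 3 lower genes were Pdgfa (−1.19 ± 0.08), Fgf9 (−1.68 ± 0.20) and Apln, the ligand of the apelin receptor (−3.36 ± 0.18).

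Ventricular markers were higher in 8 of 8 (7 beyond 2-fold), with a median of 8.46, and atrial markers in 6 of 7 tested with 1 lower (4 and 0 beyond 2-fold, the lower one beyond it without the first heart), with a median of 1.73. Myl2 had 2127, 2466 and 2433 CPM in the 3 hearts, against 0.371, 0.506 and 1.64 CPM in the 3 tail buds, and again the third tail bud was the highest of its group. Irx4, a homeobox factor of the ventricle, had 143, 136 and 152 CPM in the 3 hearts, against 2.68, 3.12 and 3.40 CPM in the 3 tail buds. The atrial light chains Myl7 and Myl4 differed by 11.24 ± 0.44 and 10.81 ± 0.37, and sarcolipin, Sln, an atrial gene of later stages, had 7 counts in the hearts and 1 in the tail buds. Smooth muscle genes, many of which embryonic heart muscle also uses, were higher in 6 of 7 (6 beyond 2-fold) and lower in 1, with a median of 5.69. Acta2 had 4931, 4811 and 4238 CPM in the 3 hearts, against 57.3, 67.5 and 50.3 CPM in the 3 tail buds, and Tagln differed by 4.90 ± 0.13.

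**Figure D2:**
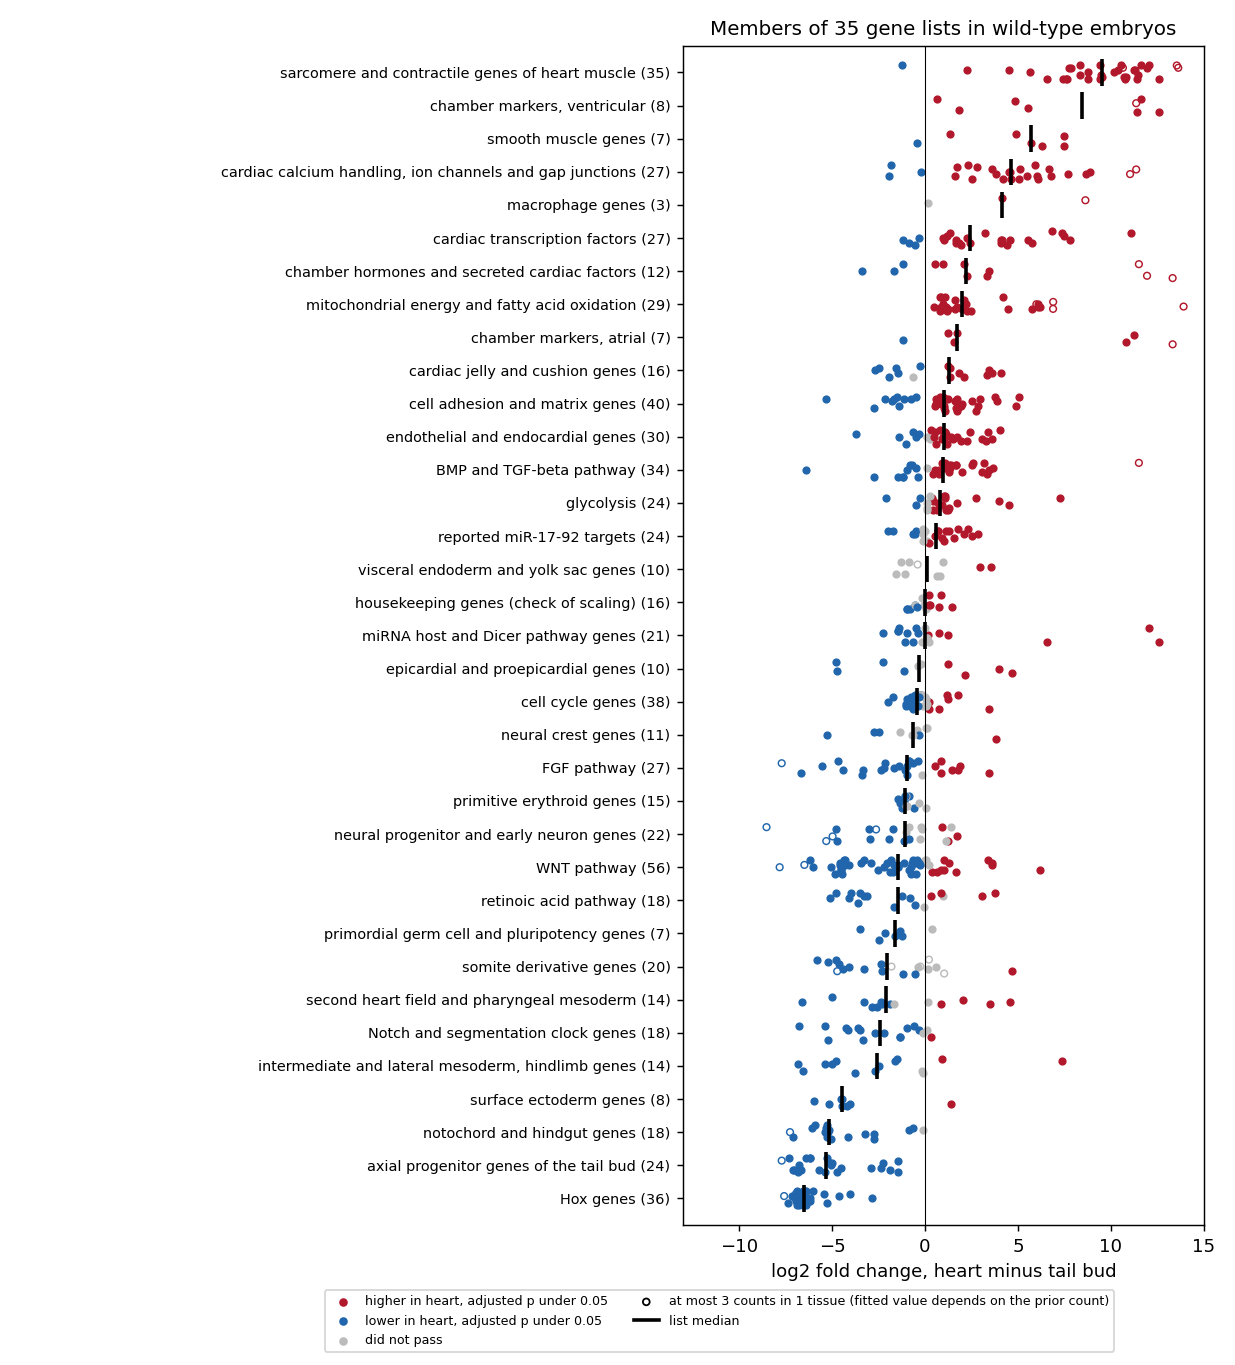
Log2 fold change (heart minus tail bud, x axis) of each tested member of the 35 gene lists (points, number tested in brackets), with list medians as black bars and lists ordered by median. Contractile genes stand at the top with a median of 9.49 and Hox genes at the bottom with −6.52, and hollow points have at most 3 counts in 1 tissue, where the fitted value depends on the prior count.

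Endothelial and endocardial genes were higher in 22 of 30 (13 beyond 2-fold) and lower in 6 (2 beyond 2-fold), with a median of 1.01. Cdh5, the adhesion molecule of endothelial junctions, was sizeable in both tissues, with 264, 284 and 275 CPM in the 3 hearts, against 129.99, 146 and 126 CPM in the 3 tail buds (log2 fold change 1.03 ± 0.06, adjusted p = 8.94e-09). Nfatc1, needed for valve formation, had 119, 127 and 111 CPM in the 3 hearts, against 11.0, 10.8 and 7.50 CPM in the 3 tail buds, with a log2 fold change of 3.59 ± 0.12 (adjusted p = 3.83e-11). Npr3, a natriuretic peptide receptor, had 217, 212 and 239 CPM in the 3 hearts, against 22.2, 19.3 and 23.7 CPM in the 3 tail buds. Klf2, which responds to flow, had 19.1, 21.7 and 21.7 CPM in the 3 hearts, against 1.16, 1.52 and 1.13 CPM in the 3 tail buds. Hearts and tail buds did not overlap in any of these genes, and the differences of Npr3 and Klf2 were 3.36 ± 0.08 and 4.01 ± 0.18. On the lower side was Cldn5, a tight junction gene of vessels, with 1.78, 2.38 and 2.00 CPM in the 3 hearts, against 23.8, 23.8 and 33.9 CPM in the 3 tail buds (−3.71 ± 0.18), and the hematopoietic factor Lmo2 (−1.41 ± 0.12). Fli1 and Tal1, factors of early endothelium and blood, did not pass, at 0.13 ± 0.10 (adjusted p = 0.250) and 0.26 ± 0.14 (adjusted p = 0.127).

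Among 16 genes of cardiac jelly and valve cushions, 9 were higher (8 beyond 2-fold) and 6 lower (5 beyond 2-fold), with a median of 1.31. Versican, Vcan, the large proteoglycan of the jelly, had 2909, 2971 and 3070.1 CPM in the 3 hearts, against 705, 731 and 656 CPM in the 3 tail buds. Its link protein gene Hapln1 and the hyaluronan synthase gene Has2 were higher as well, and the 3 log2 fold changes were 2.10 ± 0.06, 1.85 ± 0.06 and 1.26 ± 0.07. The cushion inducers Bmp2 and Tgfb2 differed by 3.34 ± 0.09 and 3.47 ± 0.08. Lower were the factors of mesenchymal transition Snai1, Snai2 and Twist1 (−2.66 ± 0.13, −2.47 ± 0.13 and −1.94 ± 0.11) and the homeobox gene Msx1 (−1.58 ± 0.12). Postn, a matrix gene of valves, did not pass (log2 fold change −0.67 ± 0.44, adjusted p = 0.214), and the second tail bud was apart from the others at 7.18, 20.9 and 7.94 CPM in the 3 tail buds.

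Epicardial and proepicardial genes split, with 4 higher and 4 lower of 10 tested (3 and 3 beyond 2-fold) and a median of −0.30. Tbx18, an early epicardial factor, had 15.5, 16.7 and 19.6 CPM in the 3 hearts, against 0.330, 0.623 and 1.20 CPM in the 3 tail buds. Wt1, the Wilms tumour factor, had 20.4, 25.3 and 23.0 CPM in the 3 hearts, against 4.21, 5.84 and 5.42 CPM in the 3 tail buds. Their differences were 4.69 ± 0.23 and 2.15 ± 0.17, with every heart above every tail bud. Aldh1a2, which makes retinoic acid in epicardium and in trunk mesoderm, was on the other side, with 1.62, 1.11 and 1.82 CPM in the 3 hearts, against 31.6, 43.6 and 49.8 CPM in the 3 tail buds (−4.77 ± 0.20). Bnc1 and Tcf21 were lower too (−4.74 ± 0.23 and −2.25 ± 0.16).

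Second heart field and pharyngeal genes were lower in 8 of 14 (8 beyond 2-fold) and higher in 4 (3 beyond 2-fold), with a median of −2.09. Isl1 (ENSMUSG00000042258), the LIM factor of these progenitors and of hindlimb mesoderm, had 7.94, 8.59 and 8.30 CPM in the 3 hearts, against 77.9, 84.8 and 76.6 CPM in the 3 tail buds, with a log2 fold change of −3.27 ± 0.08 (adjusted p = 2.68e-12). The hearts lay between 7.94 and 8.59 CPM, well under every tail bud. Tbx1, a pharyngeal factor, had 0.486, 0.721 and 0.589 CPM in the 3 hearts, against 1.61, 2.45 and 2.77 CPM in the 3 tail buds, beside 13.4 ± 1.46 CPM in the remaining embryo (SD, n = 3). The outflow guidance cue Sema3c and the receptor Nrp1 were higher, by 3.50 ± 0.13 and 2.03 ± 0.07. Fgf8, Foxf1 and Hoxb1, which the posterior embryo uses as well, were among the lower members.

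Macrophage and yolk sac genes were sparse. Of 10 macrophage genes 3 could be tested and 2 were higher (without the second tail bud 4 could be tested, of which 2 were higher and 1 lower). Csf1r, the receptor of a macrophage growth factor, had 2.43, 2.55 and 2.65 CPM in the 3 hearts, against 0.206, 0.156 and 0 CPM in the 3 tail buds, and Lyz2 had 8.91, 8.43 and 7.77 CPM in heart and 0.0413, 0 and 0 CPM in tail bud. Cd68, of lysosomes, was present in both tissues, with 4.38, 3.83 and 2.82 CPM in the 3 hearts, against 3.71, 3.04 and 3.15 CPM in the 3 tail buds, and did not pass (log2 fold change 0.16 ± 0.19, adjusted p = 0.485). Spi1, a myeloid factor, had 0.216, 0.388 and 0.235 CPM in heart and 0.495, 0.0390 and 1.13 CPM in tail bud and was not tested for lack of counts. The other markers Adgre1, C1qa, C1qb, Cx3cr1, Ptprc and Tyrobp stayed at or below 0.189 CPM in all 6 libraries. Of 10 genes of the visceral endoderm and yolk sac 2 were higher and 0 lower (20% called, against 68.6% of all genes tested), with a median of 0.12. Without the second or the third tail bud 1 was higher, and with the replicate number as a block or with DESeq2 2 were higher and 1 lower. In the fit of the 6 heart and tail bud libraries alone 2 were higher and 3 lower of 6 tested. Apoe, a lipid carrier that other cells also make, had 159, 143 and 147 CPM in the 3 hearts, against 12.7, 11.5 and 14.1 CPM in the 3 tail buds, while Afp, the defining gene of that endoderm, had 0.702, 0.333 and 0.471 CPM in heart and 1.40, 0.857 and 1.64 CPM in tail bud and did not pass, except in the fit of the 6 libraries alone (−1.33, adjusted p = 0.0121).

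Blood genes varied with the library. Of 15 primitive erythroid genes tested, 9 were lower in heart and 0 higher, none of the 15 beyond 2-fold, with a median of −1.07. The called share was 60%, under the 68.6% of all genes tested. Their sum was 1552, 2212 and 3769 CPM in the 3 hearts, against 4237, 6193 and 5331 CPM in the 3 tail buds. The embryonic globin Hbb-bh1 had 319, 462 and 888 CPM in the 3 hearts, against 1106, 1601 and 1864 CPM in the 3 tail buds, with a log2 fold change of −1.45 ± 0.40 (adjusted p = 0.0142). The third heart came close to the first tail bud, and without the third tail bud the call was lost (adjusted p = 0.0562). The count of 9 moved with single libraries, to 3 without the second heart, 14 without the third heart, 2 without the second tail bud and 5 without the third tail bud. Without the third heart 8 of the 15 were lower beyond 2-fold, with a median of −1.57. Of the 9 lower genes, 0 had the same direction in all 7 mutant genotypes described below. Per exon length the globins led the tail bud: Hbb-y was at 1081 RPKM in heart and 2572 RPKM in tail bud, and Hbb-bh1 at 907 RPKM in heart and 2486 RPKM in tail bud.

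Mitochondrial and fatty acid oxidation genes were higher in heart in 29 of 29 tested (21 beyond 2-fold), with a median of 2.01. In sum they held 12253, 12303 and 12259 CPM in the 3 hearts, against 4758, 4658 and 5894 CPM in the 3 tail buds, of which the third was the highest. Muscle isoforms of respiratory chain subunits stood far apart. Cox6a2 had 91.8, 87.2 and 98.2 CPM in heart and 0 in tail bud, at least 645-fold higher. Cox7a1 had 39.7, 37.6 and 38.4 CPM in the 3 hearts, against 0.206, 0.623 and 0.819 CPM in the 3 tail buds. The common subunits differed less, the ATP synthase genes Atp5a1 and Atp5b by 1.11 ± 0.09 and 0.95 ± 0.10 and the citrate synthase gene Cs by 1.18 ± 0.06. Ppargc1a, a coactivator of mitochondrial biogenesis, had 78.8, 87.8 and 79.0 CPM in the 3 hearts, against 0.908, 1.40 and 1.26 CPM in the 3 tail buds, with a log2 fold change of 6.10 ± 0.16 (adjusted p = 4.55e-12). For the use of fat, the muscle carnitine transferase gene Cpt1b differed by 4.46 ± 0.28 and the fatty acid binding protein gene Fabp3 by 5.76 ± 0.20. In Cox4i1 the third tail bud was apart from its group, with 397, 398 and 411 CPM in the 3 hearts, against 187, 183 and 315 CPM in the 3 tail buds (0.82 ± 0.18).

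Glycolysis genes were higher in 17 of 24 (7 beyond 2-fold) and lower in 3 (1 beyond 2-fold), with a median of 0.81. The muscle mutase Pgam2 had 223, 201 and 189.5 CPM in the 3 hearts, against 1.24, 1.32 and 1.45 CPM in the 3 tail buds, with a log2 fold change of 7.26 ± 0.12 (adjusted p = 7.79e-14). The phosphofructokinase Pfkp, hexokinase 1 (Hk1) and the muscle enolase Eno3 were also higher, by 4.53 ± 0.11, 3.96 ± 0.09 and 2.73 ± 0.10. Hexokinase 2 (Hk2) and the muscle phosphofructokinase Pfkm were higher by less, 0.40 ± 0.07 and 1.08 ± 0.06. Eno1 did not pass (log2 fold change 0.11 ± 0.10, adjusted p = 0.340) except without the third tail bud (0.00978), and Pfkl and Pkm were lower (−0.26 ± 0.08 and −0.46 ± 0.11). The glucose transporters took opposite sides. Slc2a1 had 1525, 1446 and 1303 CPM in the 3 hearts, against 465, 425 and 427 CPM in the 3 tail buds. Slc2a3 had 305, 270.1 and 213 CPM in the 3 hearts, against 1289, 1110.1 and 983 CPM in the 3 tail buds. The hearts were above the tail buds in the first and below them in the second, with log2 fold changes of 1.70 ± 0.09 and −2.10 ± 0.17. The lactate carrier Slc16a3 was higher (0.94 ± 0.11).

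On the tail bud side, all 24 axial progenitor genes were lower in heart, all 24 beyond 2-fold, with a median of −5.32 (−5.20 with the gene at 0 in heart set to its bound). Brachyury, T (ENSMUSG00000062327), which drives posterior mesoderm, had 3.57, 1.22 and 1.35 CPM in the 3 hearts, against 260.4, 216 and 239 CPM in the 3 tail buds. Its log2 fold change was −6.84 ± 0.23 (adjusted p = 9.31e-10). The caudal homeobox gene Cdx2 had 2.49, 0.665 and 1.06 CPM in the 3 hearts, against 224, 182 and 179 CPM in the 3 tail buds. Cdx4 had 4.48, 0.665 and 1.59 CPM in the 3 hearts, against 289, 213 and 232 CPM in the 3 tail buds. In all 3 genes the first heart was the highest of the hearts, and every heart stayed far below every tail bud. The differences of Cdx2, Cdx4 and Cdx1 were −7.10 ± 0.25, −6.75 ± 0.46 and −5.37 ± 0.31.

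Genes of both branches of the progenitors were on this side. Nkx1-2, a marker of the progenitors themselves, had 1.24, 0.610 and 0.412 CPM in the 3 hearts, against 111, 109.8 and 82.3 CPM in the 3 tail buds, with a log2 fold change of −7.04 ± 0.24 (adjusted p = 1.03e-10). Sox2, which the neural branch keeps, had 1.19, 1.16 and 2.59 CPM in the 3 hearts, against 41.3, 44.2 and 43.2 CPM in the 3 tail buds, beside 102 ± 7.31 CPM in the remaining embryo (SD, n = 3). For the mesodermal branch, Tbx6 had 1.89, 0.444 and 1.18 CPM in the 3 hearts, against 85.7, 87.1 and 80.0 CPM in the 3 tail buds, and it had 1.37 ± 0.677 CPM in the remaining embryo (SD, n = 3). All 3 genes were low in every heart, with log2 fold changes of −4.71 ± 0.18 for Sox2 and −6.16 ± 0.29 for Tbx6. Msgn1, a helix-loop-helix factor of presomitic mesoderm whose promoter is printed above, had 1.30, 0.277 and 0.177 CPM in the 3 hearts, against 69.5, 34.1 and 49.2 CPM in the 3 tail buds, with a log2 fold change of −6.40 ± 0.48 (adjusted p = 1.72e-06). Evx1, Epha5 and Fgf17 belonged here as well, at −7.31 ± 0.26, −5.68 ± 0.25 and −6.66 ± 0.22.

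Some members kept a sizeable level in heart. Lin28a, an RNA-binding protein that blocks let-7 maturation, had 232, 193 and 183 CPM in the 3 hearts, against 1000.1, 924 and 957 CPM in the 3 tail buds, with a log2 fold change of −2.24 ± 0.09 (adjusted p = 1.31e-10). Greb1l had 80.5, 70.9 and 73.0 CPM in the 3 hearts, against 556, 607 and 498 CPM in the 3 tail buds. Lin28b and Gdf11, a ligand that times the change from trunk to tail, differed by −1.46 ± 0.05 and −1.44 ± 0.08. The libraries of the 2 tissues did not overlap in any of the 24 genes of the list, nor in 70.5% of all genes tested.

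Notch and segmentation clock genes were lower in 15 of 18 tested (11 beyond 2-fold) and higher in 1 (0 beyond 2-fold), with a median of −2.43. The clock is an oscillator of Notch, WNT and FGF targets in presomitic mesoderm. Its ligand gene Dll1 had 10.2, 7.04 and 9.59 CPM in the 3 hearts, against 150.1, 165 and 162 CPM in the 3 tail buds. Dll3 differed by more, −6.79 ± 0.15 beside −4.15 ± 0.12 for Dll1. Cycling genes varied between tail buds. Hes7, the core repressor, had 0.594, 0.554 and 0.589 CPM in the 3 hearts, against 9.86, 27.2 and 29.0 CPM in the 3 tail buds. Lfng, which modifies the Notch receptor, had 0.702, 0.776 and 0.706 CPM in the 3 hearts, against 12.4, 42.2 and 37.1 CPM in the 3 tail buds. The feedback inhibitor Nrarp had 11.1, 11.9 and 12.3 CPM in the 3 hearts, against 86.5, 147 and 167 CPM in the 3 tail buds. The first tail bud was the lowest of its group in all 3 genes and was still above every heart. In the same library the WNT target Axin2 was the highest of its group, with 28.1, 20.7 and 23.3 CPM in the 3 hearts, against 201, 111 and 110.2 CPM in the 3 tail buds. So was the WNT inhibitor Dkk1, with 2.27, 1.50 and 1.53 CPM in the 3 hearts, against 58.3, 18.6 and 44.7 CPM in the 3 tail buds. Mesp2, which marks the next somite boundary, had 0.162, 0.388 and 0.294 CPM in the 3 hearts, against 0.371, 2.69 and 5.99 CPM in the 3 tail buds, with a log2 fold change of −3.32 ± 1.05 (adjusted p = 0.0180), a call that was lost without the first heart (0.0581), without the third tail bud (0.0845) and with no filter on low counts (0.0748). The gene higher in heart was Jag1, a Notch ligand of vessels and heart (log2 fold change 0.31 ± 0.07, adjusted p = 0.00236, and 0.297 when library totals replaced the scaling factors).

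Somite derivative genes were lower in 12 of 20 (10 beyond 2-fold) and higher in 1 (1 beyond 2-fold), with a median of −2.05. The called share was 65%, near the 68.6% of all genes tested, and 55% were beyond 2-fold, against 21.5%. In the fit of the 6 heart and tail bud libraries alone 12 could be tested, with 1 higher, 10 lower and a median of −3.70. Over all genes 10850 of 16137 passed in that fit. Meox1, an early somite homeobox gene, had 2.05, 1.61 and 2.18 CPM in the 3 hearts, against 12.8, 33.0 and 53.6 CPM in the 3 tail buds. The tail buds differed among themselves, and each was above every heart. Tcf15, another early somite factor, had 0.0540, 0.277 and 0.177 CPM in the 3 hearts, against 2.89, 4.17 and 4.10 CPM in the 3 tail buds. Genes of differentiated somites were barely detected: Myog, a muscle factor, had 1 count in all hearts and 1 in all tail buds, and the sclerotome gene Pax1 had 0.216, 0.277 and 0.0589 CPM in heart and 0.0413, 0.273 and 0.504 CPM in tail bud, beside 20.3 ± 2.85 CPM in the remaining embryo (SD, n = 3). The higher gene was Tbx18, described above.

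Hox genes, which give positional identity along the axis, were lower in heart in 36 of 36 tested, all 36 beyond 2-fold, with a median of −6.52 against −0.03 over all genes tested. The smallest difference was that of Hoxb2, at −2.85 ± 0.18. The 38 matched Hox genes summed to 44.0, 18.6 and 23.8 CPM in the 3 hearts, against 2600.2, 2585 and 2392 CPM in the 3 tail buds and 438, 457 and 453 CPM in the remaining embryos. The first heart was again the highest of the hearts. Per exon length Hoxc10 was the highest in tail bud, at 1.07 RPKM in heart and 133 RPKM in tail bud. Hoxa6 followed at 0.956 RPKM in heart and 85.6 RPKM in tail bud, and Hoxc6 at 0.650 RPKM in heart and 56.6 RPKM in tail bud.

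By paralogue group the medians were close: 11 of 11 genes of groups 1 to 4 were lower with a median of −6.35, 15 of 15 of groups 5 to 9 with −6.51, and 10 of 10 tested of groups 10 to 13 with −6.85. Groups 1 to 4 summed to 12.5, 6.88 and 9.30 CPM in the hearts, 637, 585 and 517 CPM in the tail buds and 209, 213 and 206 CPM in the remaining embryos. Groups 10 to 13 summed to 11.4, 3.99 and 4.06 CPM in the hearts, 709.97, 774 and 809.8 CPM in the tail buds and 6.11, 4.85 and 9.25 CPM in the remaining embryos. The posterior groups were thus low in heart and in the remaining embryo alike. Hoxd13, at the end of its cluster, had 1.03, 0.554 and 0.177 CPM in the 3 hearts, against 47.4, 57.8 and 68.1 CPM in the 3 tail buds. Hoxa13 had 0.324, 0 and 0.471 CPM in the 3 hearts, against 17.6, 21.4 and 20.3 CPM in the 3 tail buds. Of the last genes of the other clusters, Hoxc13 had 0.0540, 0.166 and 0 CPM in heart and 1.24, 1.52 and 1.13 CPM in tail bud, and Hoxb13 had 1 count in the hearts and 5 in the tail buds.

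**Figure D3:**
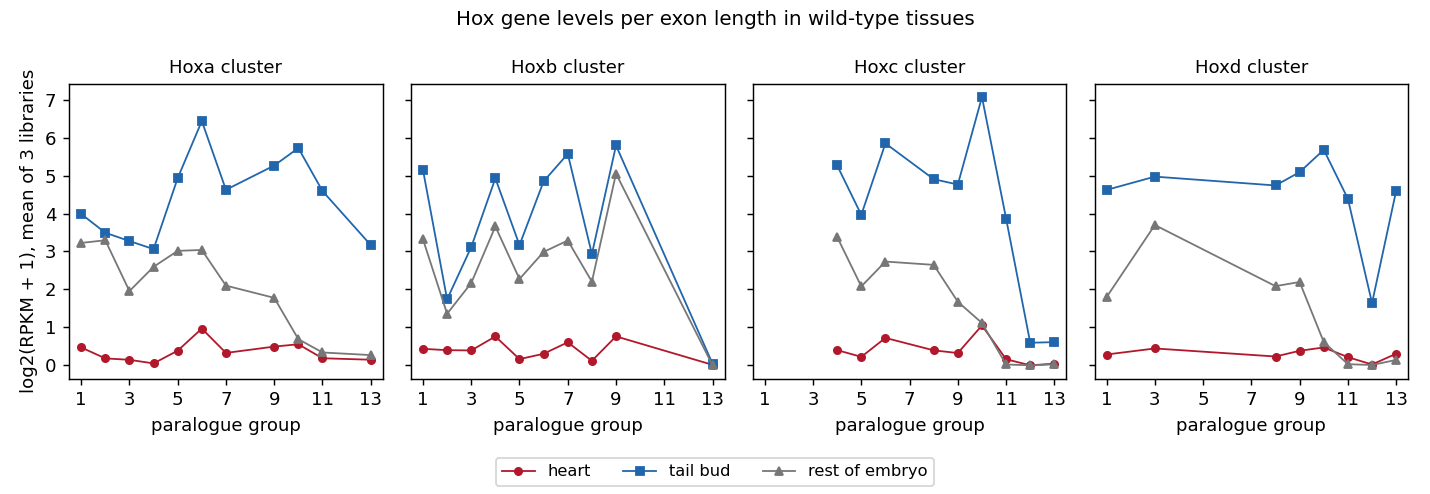
Mean level of each Hox gene as log2(RPKM + 1) by paralogue group in heart, tail bud and the remaining embryo, 1 panel per cluster. Heart values stay at or below 1.07 RPKM in every gene, tail bud values reach 133 RPKM for Hoxc10, and values of the remaining embryo are at or below 1.17 RPKM from group 10 on.

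Markers of other tissues of the posterior embryo were also lower in heart. Of 18 notochord and hindgut genes 17 were lower (15 beyond 2-fold) and 0 higher, with a median of −5.17. Noto, a notochord gene, had 0.0540, 0 and 0.118 CPM in heart and 9.82, 9.00 and 9.64 CPM in tail bud. Shh, the signal of notochord, floor plate and gut, had 0.324, 0.277 and 0.471 CPM in the 3 hearts, against 12.6, 13.1 and 12.3 CPM in the 3 tail buds. E-cadherin, Cdh1, of gut and skin epithelium, had 1.46, 1.94 and 1.41 CPM in the 3 hearts, against 65.6, 63.9 and 67.0 CPM in the 3 tail buds, with a log2 fold change of −5.34 ± 0.12 (adjusted p = 1.11e-12). Epcam, of the same epithelia, differed by −5.35 ± 0.11, and Krt8 did not pass (log2 fold change −0.11 ± 0.11, adjusted p = 0.405), except with library totals (−0.33, adjusted p = 0.0157). Surface ectoderm genes were lower in 7 of 8 (7 beyond 2-fold) and higher in 1 (1 beyond 2-fold), with a median of −4.45. Trp63, the p63 factor of skin, had 0.486, 0.166 and 0.530 CPM in the 3 hearts, against 26.0, 26.9 and 21.4 CPM in the 3 tail buds, and the higher gene was Perp, of desmosomes (1.37 ± 0.09).

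Lateral mesoderm and hindlimb genes were lower in 10 of 14 (10 beyond 2-fold) and higher in 2 (1 beyond 2-fold), with a median of −2.59. Pitx1, the hindlimb selector, had 1.67, 0.943 and 0.765 CPM in the 3 hearts, against 107, 113 and 99.5 CPM in the 3 tail buds. Tbx4, its T-box target, had 1.03, 0.333 and 0.530 CPM in the 3 hearts, against 72.3, 76.8 and 71.7 CPM in the 3 tail buds. Their log2 fold changes were −6.54 ± 0.16 and −6.84 ± 0.67, while Tbx5, of forelimb and heart, was on the heart side as given above. Germ cell and pluripotency genes were lower in 6 of 7 tested (5 beyond 2-fold), with a median of −1.59, and the other 8 of 15 listed were not tested for lack of counts. Sall4, which posterior progenitors use as well, had 90.3, 73.7 and 82.9 CPM in the 3 hearts, against 475, 502 and 402 CPM in the 3 tail buds (−2.48 ± 0.09). The germ cell genes Prdm14 and Dppa3 had 11 and 2 counts in the tail buds together and 0 in the hearts.

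Neural genes were lower in 12 of 22 (9 beyond 2-fold) and higher in 3 (1 beyond 2-fold), with a median of −1.09. The called share was 68.2%, near the 68.6% of all genes tested, and 45.5% were beyond 2-fold, against 21.5%. In the fit of the 6 heart and tail bud libraries alone 15 neural genes could be tested, with 2 higher and 10 lower. Over all genes 10850 of 16137 passed in that fit. Without the third tail bud 5 were higher and 11 lower, and without the first heart, the second heart or the first tail bud 0 were higher beyond 2-fold. The latter count was also 0 with upper-quartile factors, with library totals, with no filter on low counts and with DESeq2. Sox3, a partner of Sox2 in neural progenitors, had 1.94, 2.88 and 3.53 CPM in the 3 hearts, against 21.5, 23.8 and 20.1 CPM in the 3 tail buds. Mnx1, a motor neuron factor that notochord and gut also use, had 0, 0 and 0.0589 CPM in heart and 12.4, 6.23 and 8.51 CPM in tail bud. The other way went nestin, Nes, an intermediate filament of neural and muscle precursors, with 343, 379 and 275 CPM in the 3 hearts, against 138, 154 and 125 CPM in the 3 tail buds (1.25 ± 0.11). Of 11 neural crest genes 4 were lower (3 beyond 2-fold) and 1 higher (1 beyond 2-fold), with a median of −0.66. Of these genes 45.5% were called, under the 68.6% of all genes tested, and 36.4% were beyond 2-fold, against 21.5%. In the fit of the 6 libraries alone 7 crest genes could be tested, with 1 higher and 4 lower, so the low share depends on the genes tested. Sox10, the defining gene of migrating crest, had 0.162, 0.444 and 0.530 CPM in heart and 0.0825, 0.312 and 1.39 CPM in tail bud, beside 28.6 ± 1.37 CPM in the remaining embryo (SD, n = 3). The higher gene was the endothelin receptor gene Ednrb, with 53.0, 61.2 and 80.5 CPM in the 3 hearts, against 4.41, 4.44 and 4.73 CPM in the 3 tail buds.

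Signalling genes divided by family. Of 56 WNT genes 40 were lower in heart (26 beyond 2-fold) and 11 higher (6 beyond 2-fold), with a median of −1.43. Among the 18 ligands 13 were lower (11 beyond 2-fold) and 4 higher (2 beyond 2-fold). Wnt3a, the ligand of the progenitor zone, had 0.540, 0.554 and 0.353 CPM in the 3 hearts, against 34.3, 35.5 and 36.0 CPM in the 3 tail buds, with a log2 fold change of −6.16 ± 0.15 (adjusted p = 2.04e-12). Wnt5a, a ligand of the non-canonical branch, had 116, 124 and 134 CPM in the 3 hearts, against 471, 501 and 432 CPM in the 3 tail buds. Wnt5b, its relative, had 4.48, 2.77 and 2.41 CPM in the 3 hearts, against 81.1, 63.2 and 82.1 CPM in the 3 tail buds. Every heart was below every tail bud in these 3 genes. Wnt10a was at 0 in the 3 hearts and at 1.40, 1.17 and 1.51 CPM in the tail buds, at least 8.09-fold lower in heart. The heart had ligands of its own. Wnt11, which acts in outflow tract and muscle cell polarity, had 57.6, 54.5 and 48.4 CPM in the 3 hearts, against 4.66, 4.52 and 4.16 CPM in the 3 tail buds, with a log2 fold change of 3.58 ± 0.12 (adjusted p = 4.05e-11). Wnt2 had 69.1, 64.3 and 67.6 CPM in the 3 hearts, against 5.07, 7.63 and 6.11 CPM in the 3 tail buds, with a log2 fold change of 3.41 ± 0.14 (adjusted p = 1.80e-10). Wnt2b and Wnt4 were higher by smaller steps (1.04 ± 0.17 and 0.36 ± 0.09), Wnt4 not with library totals as the scale (adjusted p = 0.191).

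Among WNT receptors, 5 of 10 Frizzled genes were lower (2 beyond 2-fold) and 3 higher (2 beyond 2-fold), from −4.32 for Fzd10 to 1.67 for Fzd4. The 4 R-spondins, which strengthen WNT signals, were all lower (2 beyond 2-fold), and Rspo3 had 46.3, 52.9 and 47.8 CPM in the 3 hearts, against 102, 83.1 and 81.9 CPM in the 3 tail buds. A set of 11 WNT targets and feedback genes was lower in 11 of 11 (9 beyond 2-fold), with a median of −2.55. It summed to 214, 211 and 193 CPM in heart, against 952, 784 and 751 CPM in tail bud. Lef1, a partner of beta-catenin, had 79.7, 84.9 and 78.7 CPM in the 3 hearts, against 304, 308 and 263 CPM in the 3 tail buds. Nkd2 and Notum, inhibitors of the pathway, differed by −4.34 ± 0.12 and −3.26 ± 0.20. Of the secreted antagonists, Sfrp5 was higher, with 11.9, 11.6 and 14.4 CPM in the 3 hearts, against 0.165, 0.195 and 0.126 CPM in the 3 tail buds, and so was Dkk3 (3.62 ± 0.08). Sfrp2, Frzb and Dkk1 were lower (−4.29 ± 0.13, −2.91 ± 0.10 and −4.51 ± 0.49).

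FGF pathway genes were lower in 19 of 27 tested (12 beyond 2-fold) and higher in 7 (4 beyond 2-fold), with a median of −0.97. Fgf17 had 1.35, 0.444 and 0.589 CPM in the 3 hearts, against 81.4, 73.2 and 90.2 CPM in the 3 tail buds, with a log2 fold change of −6.66 ± 0.22 (adjusted p = 6.28e-11). Fgf8, the best known ligand of the tail bud, had 4.32, 6.27 and 5.30 CPM in the 3 hearts, against 27.0, 24.6 and 29.9 CPM in the 3 tail buds, with a log2 fold change of −2.36 ± 0.15 (adjusted p = 2.13e-08). Fgf3, Fgf15 and Fgf18 were lower as well (−5.56 ± 0.23, −4.70 ± 0.28 and −4.41 ± 0.24). Fgf4 was at 0 in the 3 hearts and at 1.16, 1.09 and 1.58 CPM in the tail buds, at least 7.57-fold lower in heart. Fgf10, a ligand of the second heart field and of limb mesoderm, was higher in heart, with 23.6, 19.4 and 25.0 CPM in the 3 hearts, against 11.2, 11.9 and 14.7 CPM in the 3 tail buds. So were Fgf1, Fgf7 and the intracellular member Fgf13 (1.79 ± 0.30, 3.42 ± 0.55 and 1.87 ± 0.09). Of 11 feedback and target genes 9 were lower (4 beyond 2-fold) and 2 higher (1 beyond 2-fold). Il17rd, an inhibitor of FGF signalling, had 39.2, 30.3 and 30.4 CPM in the 3 hearts, against 373, 358 and 288 CPM in the 3 tail buds, with a log2 fold change of −3.35 ± 0.12 (adjusted p = 1.21e-10). The targets Spry1, Etv4 and Dusp6 differed by −2.19 ± 0.10, −2.14 ± 0.10 and −1.42 ± 0.08, and Spry2 was higher (0.56 ± 0.10). Of the receptors, Fgfr1, Fgfr2 and Fgfr4 were lower (−0.95 ± 0.07, −0.64 ± 0.09 and −3.36 ± 0.30) and Fgfr3 higher (0.88 ± 0.14).

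BMP and TGF-beta genes were higher in heart in 23 of 34 tested (14 beyond 2-fold) and lower in 10 (3 beyond 2-fold), with a median of 0.99. The BMP ligand genes were higher in 5 of 6 and the TGF-beta ligands in 3 of 3. Bmp7 had 266, 267 and 246 CPM in the 3 hearts, against 30.2, 27.6 and 27.5 CPM in the 3 tail buds, with a log2 fold change of 3.19 ± 0.06 (adjusted p = 2.10e-13). Bmp5 had 84.9, 81.8 and 81.7 CPM in the 3 hearts, against 6.39, 7.13 and 5.67 CPM in the 3 tail buds. Tgfb2, a ligand of cushion formation, had 171, 184 and 174 CPM in the 3 hearts, against 16.1, 16.7 and 14.8 CPM in the 3 tail buds. In each gene the lowest heart was several times above the highest tail bud. Bmp4 was the exception among BMP ligands, with 32.6, 38.5 and 28.8 CPM in the 3 hearts, against 76.2, 65.3 and 55.2 CPM in the 3 tail buds (−0.98 ± 0.12). Of the antagonists, Grem1 and Chrd were lower (−6.40 ± 0.25 and −2.75 ± 0.20), and Nog and Bmper higher (1.68 ± 0.16 and 2.52 ± 0.09). Smad6, an inhibitory Smad that the pathway induces, was higher (1.99 ± 0.06). Among the Id genes, which the pathway also induces, Id1 and Id3 were lower (−0.68 ± 0.12 and −0.39 ± 0.08) and Id2 higher (1.10 ± 0.09). The coreceptor genes Eng and Tgfbr3 were higher (3.04 ± 0.07 and 2.58 ± 0.09).

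**Figure D4:**
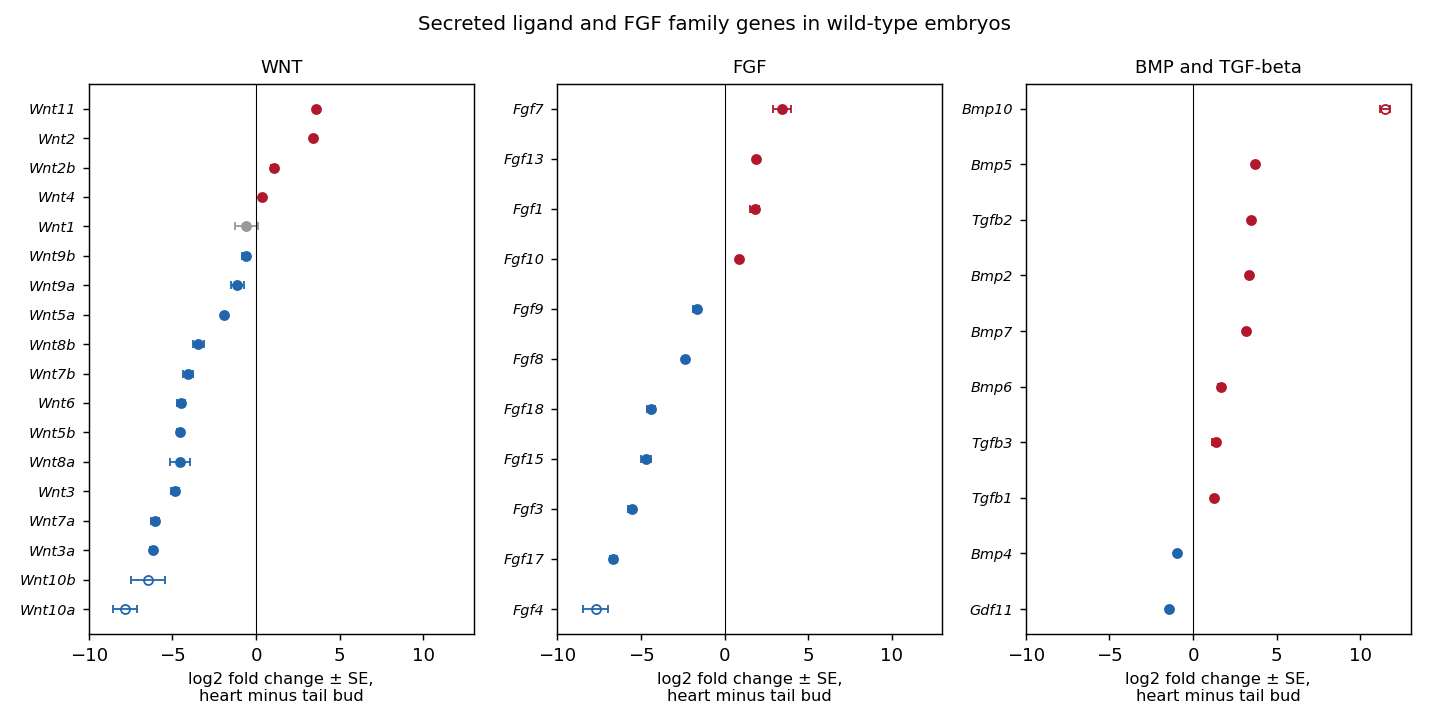
Log2 fold change ± SE (heart minus tail bud, x axis) of the tested WNT ligands, FGF genes, and BMP and TGF-beta ligand genes, ordered by value within each family. WNT ligands were lower in heart in 13 of 18 and BMP ligand genes higher in 5 of 6 (red, higher; blue, lower; grey, not past the adjusted p), and hollow points have at most 3 counts in 1 tissue.

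Retinoic acid genes were lower in 12 of 18 (10 beyond 2-fold) and higher in 4 (2 beyond 2-fold), with a median of −1.44. Cyp26a1, which clears retinoic acid from the tail bud, had 3.03, 2.77 and 1.53 CPM in the 3 hearts, against 76.1, 86.0 and 96.6 CPM in the 3 tail buds, with a log2 fold change of −5.13 ± 0.17 (adjusted p = 3.41e-11). Its relative Cyp26b1 was on the heart side, with 29.9, 30.3 and 27.8 CPM in the 3 hearts, against 2.60, 3.47 and 4.85 CPM in the 3 tail buds. The pair thus lay in opposite directions with no overlap of libraries. Rarg, the receptor of the tail bud region, had 9.51, 9.37 and 9.30 CPM in the 3 hearts, against 179, 159 and 147 CPM in the 3 tail buds. The binding proteins Crabp1 and Crabp2 were lower (−3.28 ± 0.18 and −3.52 ± 0.14), as was the uptake receptor Stra6 (−3.61 ± 0.12). The receptor genes Rara, Rarb and Rxrg were higher (0.33 ± 0.07, 0.87 ± 0.12 and 3.78 ± 0.31), Rara not with library totals as the scale (adjusted p = 0.187).

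Adhesion and matrix genes passed in 40 of 40, with 30 higher (17 beyond 2-fold) and 10 lower (7 beyond 2-fold) and a median of 1.03. Tenascin C, Tnc, a matrix protein of remodelling tissue, had 242, 288 and 242 CPM in the 3 hearts, against 5.90, 8.96 and 8.70 CPM in the 3 tail buds, with a log2 fold change of 5.04 ± 0.13 (adjusted p = 6.42e-12). The laminin chains of the basement membrane took both sides. Lama4, of vessels and muscle, had 367, 367 and 358 CPM in the 3 hearts, against 25.7, 25.9 and 23.8 CPM in the 3 tail buds. Lama1, of early epithelia, had 29.9, 30.6 and 26.9 CPM in the 3 hearts, against 207, 203 and 174 CPM in the 3 tail buds. Hearts were above tail buds in the first and below them in the second, with log2 fold changes of 3.85 ± 0.06 and −2.74 ± 0.08. Collagens were higher in 7 of 9 (5 beyond 2-fold) and lower in 2 (1 beyond 2-fold). The basement membrane chains Col4a1 and Col4a2 differed by 1.69 ± 0.08 and 1.92 ± 0.09, the cartilage collagen Col2a1, which cushions also make, by 3.75 ± 0.12, and the fibrillar Col1a1 by −2.14 ± 0.23. N-cadherin, Cdh2, was higher (0.97 ± 0.06), Cdh11 lower (−1.64 ± 0.06) and fibronectin, Fn1, higher (0.89 ± 0.10).

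Cell cycle genes were lower in 22 of 38 (2 beyond 2-fold) and higher in 8 (4 beyond 2-fold), with a median of −0.44. The called share was 78.9%, against 68.6% of all genes tested, and 15.8% were beyond 2-fold, under the 21.5% of all genes. Cdkn1c, a cyclin-dependent kinase inhibitor, had 1142, 1213 and 1179 CPM in the 3 hearts, against 101, 94.7 and 128 CPM in the 3 tail buds, with a log2 fold change of 3.45 ± 0.10 (adjusted p = 1.13e-11). Cdkn1b, its relative, was higher as well (1.18 ± 0.07). The D cyclins split. Ccnd2 had 1625, 1783 and 1949 CPM in the 3 hearts, against 525, 539 and 486 CPM in the 3 tail buds. Ccnd1 had 109, 101 and 106 CPM in the 3 hearts, against 350.4, 332 and 365 CPM in the 3 tail buds. Neither overlapped between tissues, and their differences were 1.79 ± 0.08 and −1.73 ± 0.06. The 6 genes of the replicative helicase, Mcm2 to Mcm7, were all lower, 0 of them beyond 2-fold, and summed to 1574, 1498 and 1589 CPM in heart, against 2542, 2427 and 2584 CPM in tail bud. Myc and Mycn were lower (−1.97 ± 0.11 and −0.79 ± 0.06). The mitotic cyclins Ccnb1 and Ccna2 were higher by small margins (0.18 ± 0.05 and 0.21 ± 0.05) that turned with library totals as the scale (−0.04 and −0.01). The call of Ccnb1 was also lost with upper-quartile factors (adjusted p = 0.136) and without the second heart (0.0528), and the proliferation marker Mki67 did not pass (log2 fold change −0.20 ± 0.12, adjusted p = 0.163). Mki67 was lower without the third tail bud (−0.36, 3.37e-05) and with library totals (−0.42, 0.00690). With library totals as the scale 5 cell cycle genes were higher and 26 lower.

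Of 24 genes reported elsewhere as targets of miR-17-92, 14 were higher in heart (8 beyond 2-fold) and 5 lower (2 beyond 2-fold), with a median of 0.62. With library totals as the scale 13 were higher and 9 lower. Esr1, Tnfaip3 and Zbtb4 had the largest positive values (2.84 ± 0.25, 2.51 ± 0.13 and 2.31 ± 0.10), and Ccnd2 and Tgfbr2 are also on the list. Mylip, a ubiquitin ligase, was lower, with 10.6, 9.98 and 11.5 CPM in the 3 hearts, against 46.1, 38.0 and 44.8 CPM in the 3 tail buds. E2f1 and Bcl2l11, the proapoptotic gene Bim, were lower by small steps (−0.56 ± 0.07 and −0.62 ± 0.10). Among 21 miRNA host and processing genes 6 were higher and 9 lower (4 and 4 beyond 2-fold), with a median of −0.02. The nuclear exporter Xpo5 and the effector Ago1 were lower (−1.05 ± 0.07 and −1.40 ± 0.06), as were the processing genes Drosha, Dgcr8 and Dicer1 (−0.62 ± 0.07, −0.46 ± 0.06 and −0.35 ± 0.09). With 71.4% of its members called, the list was near the background of 68.6%, while 38.1% were beyond 2-fold, against 21.5% of all genes tested.

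Outside the lists, 486 genes higher and 188 lower passed the 2-fold test at a mean log2 CPM of 5 or more, with no overlap of libraries, and the 20 largest in each direction were taken. The 20 higher genes had log2 fold changes of 5.07 to 8.09. Cacna2d2, a calcium channel subunit, had 743, 666 and 676 CPM in the 3 hearts, against 3.38, 2.26 and 1.76 CPM in the 3 tail buds. Myo18b, an unconventional myosin of the sarcomere, had 449, 421 and 399.7 CPM in the 3 hearts, against 1.65, 1.60 and 1.76 CPM in the 3 tail buds. Other genes known from muscle were Tmod1, which caps thin filaments, Trim55, a titin-associated ligase, Casq1, a calcium store protein, Mical2, which oxidises actin, Myl9, a regulatory light chain, Sorbs2, Sh3bgr and Ccdc141. Rbm24, a splicing regulator of muscle, had 363, 383 and 379 CPM in the 3 hearts, against 8.09, 9.74 and 10.7 CPM in the 3 tail buds. Alcam, an adhesion molecule of embryonic heart muscle, had 357, 345 and 341 CPM in the 3 hearts, against 9.65, 9.93 and 9.64 CPM in the 3 tail buds. Metabolic and transport genes among the 20 were Prkaa2, a catalytic subunit of AMP kinase, Gyg, which primes glycogen synthesis, and the sodium pump subunit Atp1b1, and the remaining ones were Ndrg4, Thbs4, Spon1, Rassf5 and Armh4.

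The 20 lower genes had log2 fold changes of −3.91 to −2.44. Greb1, the relative of Greb1l, had 64.0, 60.1 and 58.3 CPM in the 3 hearts, against 1059, 969 and 710.1 CPM in the 3 tail buds, with a log2 fold change of −3.91 ± 0.13 (adjusted p = 6.96e-11). Peg10, an imprinted gene of retroviral origin, had 222, 255 and 225 CPM in the 3 hearts, against 1959, 2271 and 1577 CPM in the 3 tail buds. Pdgfra, a growth factor receptor of mesenchyme, had 37.1, 31.7 and 33.0 CPM in the 3 hearts, against 283, 271 and 243 CPM in the 3 tail buds. In each the hearts lay several-fold under the tail buds, but the rule that picked these genes required a difference beyond 2-fold without overlap. Gli3, a factor of the hedgehog pathway, and Sall1, a relative of Sall4, differed by −2.60 ± 0.08 and −2.51 ± 0.09. The secreted protein gene Scube3 and the adhesion gene Igsf9 both differed by −3.91, with standard errors of 0.12 and 0.11. The others were Tgif1, Zfp503, Trim2, Igdcc3, Clip3, Ccdc88c, Sox13, Bin1, Sema6a, Lhpp, Scd1, Slc9a3r1 and Tmem132c.

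The same contrast in the 7 mutant genotypes used 42 other libraries. Of 17952 genes tested there, 70.7% passed in Full-KO, 70.5% in Delta_17, 69.9% in Delta_18, 70.1% in Delta_19, 69.5% in Delta_92, 70.1% in Delta_17_18 and 71.1% in Delta_17_18_92. Of the 16751 genes present in both fits, 79.8% had the wild-type direction in all 7 genotypes. For genes past the adjusted p in wild type the share was 96.6%. For genes beyond 2-fold it was 99.7%, or 3618 of 3630, and 96.2% of these genes passed the adjusted p in all 7. Mir17hg was lower in heart in each genotype, with log2 fold changes of −1.67 to −1.15. Across the same genotypes Myh6 differed by 11.32 to 13.39, Nkx2-5 by 10.53 to 13.07, Bmp7 by 2.82 to 3.14 and Ppargc1a by 5.81 to 6.44. On the tail bud side T differed by −7.17 to −5.83, Hoxc10 by −7.68 to −5.88, Isl1 by −3.42 to −2.51 and Cyp26a1 by −5.48 to −4.86. The wild-type direction was found in all 7 genotypes for 35 of 35 contractile genes called, 29 of 29 mitochondrial genes, 24 of 24 axial progenitor genes and 36 of 36 Hox genes. These counts are near the shares of 96.6% and 99.7% over all such genes and do not set the lists apart. Among other lists it was found for 26 of 27 cardiac transcription factors called, 13 of 15 neural genes, 4 of 5 neural crest genes and 0 of 9 erythroid genes.

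**Figure D5:**
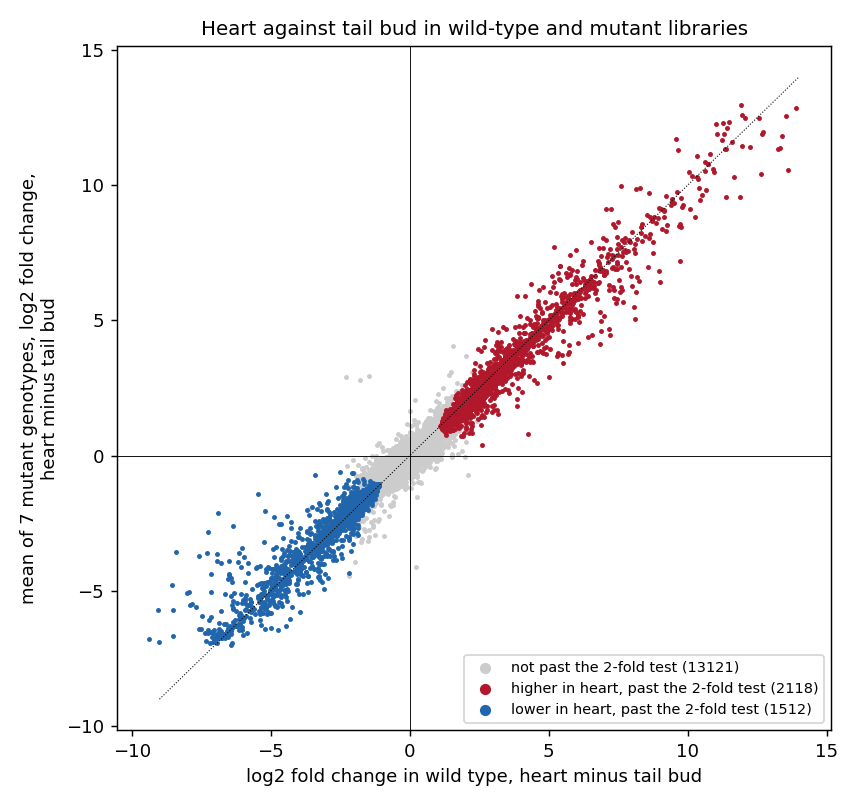
Log2 fold change (heart minus tail bud) in wild type (x axis) and its mean over 7 mutant genotypes (y axis) for the 16751 genes in both fits, with the line of equal values dotted. Genes beyond 2-fold in wild type are red where higher in heart and blue where lower, and 3618 of 3630 of them had the same direction in every genotype.

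Common reference genes were taken as a look at the scaling. Of 16 housekeeping genes 6 were higher, 5 lower and 5 past no threshold (1 higher and 0 lower beyond 2-fold), with a median of −0.01. The called share was 68.8%, near the 68.6% of all genes tested. Beyond 2-fold 1 was lower without the third tail bud and 2 with library totals as the scale. Eef1a1, a translation factor, had 1875, 1888 and 1878 CPM in the 3 hearts, against 2031, 1888 and 2272 CPM in the 3 tail buds and did not pass (log2 fold change −0.13 ± 0.07, adjusted p = 0.0978). It was lower without the second tail bud (adjusted p = 0.0160), with upper-quartile factors (0.0110) and with library totals (log2 fold change −0.36, 0.000391). Beta-actin, Actb, was lower, with 1135, 1149 and 1168 CPM in the 3 hearts, against 2263, 2192 and 2223 CPM in the 3 tail buds (−0.95 ± 0.06), and B2m was higher (1.43 ± 0.09). Gapdh was counted at 24.0, 22.3 and 22.2 CPM in heart and 23.3, 19.7 and 19.9 CPM in tail bud, low for so common a transcript. It and Rps18, Rpl13a, Ppia, Pgk1, Pgam1, Hba-a1 and Hba-a2 have near-identical copies, so their counts are uncertain. With library totals in place of TMM factors the median over all genes was lower by 0.22, 4418 genes were higher in heart and 7823 lower, and 3 housekeeping genes were higher and 8 lower. Directions in this account are therefore relative to the median gene.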

How the data were processed

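Embryonic hearts, tail buds and remaining embryos were profiled by RNA-seq. The deposited table holds raw counts of reads per gene, whose tools were Subread 1.4.2 (featureCounts), STAR 2.3.0 and SAMtools 0.1.14 and whose build was mm9 (NCBIM37), per the submitters' processing notes; strand and multi-mapping settings are not given in the sources used here. Gene IDs (32897 of 37620) were matched to symbols and exon lengths. Groups came from the labels. The 9 wild-type libraries were fitted with edgeR 4.0.16 (R 4.3.3, limma 3.58.1): genes filtered by expression per tissue, TMM factors, robust quasi-likelihood test of heart minus tail bud, a test against 2-fold (glmTreat), Benjamini-Hochberg adjustment at 0.05. The mutant contrast used 1 fit of 48 libraries. CPM use TMM factors. RPKM is CPM per 1000 bases of exon. The biological coefficient of variation was 9.44%.

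Named genes are all members of 35 lists, Mir17hg and, outside the lists, the 20 largest differences per direction past 2-fold whose mean log2 CPM was 5 or more and whose libraries did not overlap. Members and lists were chosen with earlier results of these data known. Deviations from the group means of same-numbered hearts and tail buds correlated over 10587 genes (0.371, 0.502 and 0.178, or 0.249, 0.119 and 0.105 without X and Y genes). No label says that a number marks 1 embryo, so the main fit used tissue only. An alternative fit treated the replicate numbers as a pairing. Alternatives were other scaling factors, filters, fits with DESeq2 1.42.0, a replicate block and leaving out each library. Some members of the lists are counted but not reported by name here.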

Additional observations from a re-analysis of the deposited data

How the results depend on the processing

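Of the 11611 genes that differed and the 3640 beyond 2-fold, the 2-fold count alone moved by over 1.5 times, to 1855 (1158 higher, 697 lower) with a mean log2 CPM of 3 or more, where 10646 genes were tested and 8125 differed. Over all other scalings, filters and fits the counts lay between 10850 and 12241, and between 3051 and 4024 beyond 2-fold. With 1 library left out they ran from 10873 to 12305 and from 3514 to 3849. With library totals the share of higher genes among calls was 36.1%, against 49.3% with TMM factors, and the median log2 fold change shifted by −0.22. The replicate block, which treats same-numbered libraries as pairs, gave 11727 and 3668 and changed no call of a named gene. Among the list counts it moved that of visceral endoderm and yolk sac by over 1.5 times, to 2 higher and 1 lower. In the 7 mutant genotypes 9978 genes passed in all, against 9272 with each genotype fitted alone.

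Over 315 genes named in the text and 4370 checks, 43 lost a call, 8 gained one and 11 changed sign, of which 4 are also among the lost calls. With library totals the log2 fold changes were −0.0108 for Ccna2, −0.0407 for Ccnb1, −0.0683 for Cd68, −0.0175 for Dgkk, −0.113 for Eno1, −0.0890 for Fli1 and −0.0419 for H19. With 1 library left out Pax1 ran from −0.940 to 0.210, Postn from −0.952 to 0.0340 and Sox10 from −0.975 to 0.877, none of which passed the test with all libraries. The cause was not tested.

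With 3 libraries per tissue an exact permutation test of 1 gene cannot go below p = 0.1, so single genes rest on the spread that edgeR shares across genes. A floor of 3 counts per library was on average 0.168 CPM in heart and 0.143 CPM in tail bud, and values near or below it rest on a few counts or none. This floor covers counting error only. The third tail bud stood apart from its group. Genes with near-identical copies or an overlapping partner are uncertain, since strand and multi-mapping settings are not given in the sources used here.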

Other observations

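Of the genes beyond 2-fold, 61 that were higher in heart had no count in any tail bud and 43 that were lower had none in any heart. Chosen from them after their values were seen, the muscle miRNA row Mir133a-2 had 0.648, 1.55 and 1.18 CPM in the 3 hearts and 0 in the 3 tail buds, at least 7.86-fold higher. The miRNA host Mir670hg had 4.86, 4.99 and 5.53 CPM in the hearts and 0 in the tail buds, at least 35.8-fold higher. Cox8b, a muscle isoform of a respiratory chain subunit and a member of the mitochondrial list above, had 0.648, 0.721 and 0.765 CPM in the hearts. It had 0 in the tail buds, at least 4.97-fold higher in heart.

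A few genes past the adjusted p in wild type had another direction in most mutant genotypes, and these were also chosen after their values were seen. Dgkk, an X-linked diacylglycerol kinase, had 105, 102 and 101 CPM in the 3 hearts, against 103, 85.3 and 77.6 CPM in the 3 tail buds (log2 fold change 0.21 ± 0.09, adjusted p = 0.0484), and 1 of the 7 genotypes had the wild-type direction. In Dgkk the first tail bud lay within the range of the hearts. The call was lost under 10 of 14 alternatives. Rtl5, an X-linked gene derived from a retrotransposon, had 17.2, 15.5 and 16.4 CPM in the 3 hearts, against 13.9, 14.4 and 11.0 CPM in the 3 tail buds (log2 fold change 0.31 ± 0.11, adjusted p = 0.0252), and 1 of the 7 had it. Its call was lost under 5 of 14 alternatives.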
